A study of Mus musculus with 1 sample.

Results

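In the cerebral cortex of wildtype C57BL/6 mice at P0, the day of birth, 1236 of 6770 excitatory neurons were chosen because their summed transcripts of Rorb, Inhba, Lpl and Nwd2 were at least 2 times each of 3 other sums of layer marker genes. These cells had been labelled layer IV neurons, and they were examined in a single 10x single-cell RNA sequencing (sc-RNA Seq) library of 11062 cells. The library was made from P0 cortex tissue digested to a cell suspension. The number of pups behind it is not given in the sources used here, and the SERPINA3 knock-in mice of the same study were not analysed here. With 1 library there is no replicate error and no test between groups. All intervals in brackets are 95% intervals that cover counting error only.

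In rodents, layer IV is the main layer of the neocortex that receives input from the sensory thalamus, and in the somatosensory cortex its neurons form the barrels that represent the whiskers. Rorb encodes a nuclear receptor of the ROR family that is widely used as a marker of this layer and takes part in barrel formation. Inhba encodes the beta A subunit of activin, a secreted ligand of the TGF-beta family that acts through type I and type II receptor kinases and SMAD proteins. Lpl encodes lipoprotein lipase, which releases fatty acids from triglyceride-rich lipoproteins.

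The cells were chosen by a rule on UMI counts, where a UMI (unique molecular identifier) marks 1 captured transcript. Excitatory cells had at least 1000 detected genes, at least 2 UMIs of the excitatory neuron genes Neurod2 and Neurod6 together and at most 1 UMI of Gad1 and Gad2, the genes of GABA synthesis. They also had no UMI of Eomes, which marks intermediate progenitors, or of the cell division genes Top2a and Mki67. Sum B was the sum of UMIs of Rorb, Inhba, Lpl and Nwd2. It had to reach 5 and to be at least 2 times each of 3 other sums. Sum A comprised Adamts2, Cntn2, Hs6st2 and Pou3f2, sum C comprised Fam19a1, Tcerg1l, S100a10 and Arhgdib, and sum D comprised Hs3st4, Nxph3, Syt6 and Foxp2. The rule left 1236 cells, 18.3% (17.3 to 19.2) of the excitatory cells and 11.2% (10.6 to 11.8) of the library. The other 5534 excitatory cells served as the comparison. Among these, 2744 cells were chosen in the same way by sum A, 112 by sum C and 768 by sum D, and 1910 were chosen by none of the sums.

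The label was only partly borne out by layer IV genes that the rule did not use, and the cells are therefore called Rorb/Inhba/Lpl cells below. The name lists genes of the rule, which not every cell held. Hspb3 and Ajap1 were given as markers with the label, and the gene lists were chosen with earlier results of these data known. These genes are thus no independent support for the label. Rorb itself was detected in 677 of the 1236 cells (54.8%), and 559 cells were chosen without any Rorb UMI. Hspb3, Ajap1 and Plxnd1 were at least 2-fold higher than in other excitatory cells, Unc5d was at least 2-fold lower, and Cux1 and Cux2 had ratios of 0.638 and 0.558. Plxnd1 was higher only in the cells with a Rorb UMI and was at 6.90 against 10.4 CPM in those without. Rspo1 and Scnn1a, genes known from layer IV of older mice, were close to 0, with 5 and 3 UMIs in all 1236 cells.

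The chosen cells were deeper than the cells they were compared with. They held a median of 13233 UMIs and 4300 detected genes, against 8239 UMIs and 3288 genes in the other excitatory cells. The medians were 7167 UMIs in sum A cells, 9611 in sum D cells and 21811 in sum C cells. Because a sum of 5 UMIs is reached more easily in a deep cell, levels are given as counts per 1000000 UMIs (CPM), summed over the cells of a group without mitochondrial genes. The median mitochondrial share was 3.29% in the chosen cells and 3.32% in the others. A doublet score marked 25 chosen cells (2.02%) and 4.23% of the others.

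The genes of the rule are described first. Their contrast with the other excitatory cells follows from the choice and is no finding. Sum B was 19 UMIs in the median chosen cell, with quartiles of 12 and 28 and a highest value of 101. Lpl supplied 45.6% of these UMIs, Inhba 19.9%, Nwd2 18.7% and Rorb 15.8%, and Lpl held the most UMIs of the sum in 785 cells (63.5%). All 4 genes were detected in 529 cells (42.8%), 3 in 454 cells, 2 in 214 cells and a single gene in 39 cells. That single gene was Lpl in 31 of the 39. The chosen cells thus ranged from cells with all 4 genes detected to a few with a single one, and the part of depth in this range was not tested.

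Per cell, Rorb ranged from 0 to 37 UMIs with a median of 1, and its level was 248 CPM (241 to 256) against 51.6 CPM in the other excitatory cells. Inhba ranged from 0 to 27 UMIs with a median of 3 and reached 313 CPM (305 to 322) against 41.5 CPM. Lpl ranged from 0 to 48 UMIs with a median of 9 and reached 715 CPM (702 to 728) against 205 CPM. Nwd2, which encodes a protein with NACHT and WD repeat domains, ranged from 0 to 23 UMIs with a median of 3, at 293 CPM (285 to 301) against 50.4 CPM. In the other excitatory cells the median was 0 UMIs for each of these genes.

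The 4 genes differed in where else they were found. Inhba was at 2.63 CPM in sum C cells and 3.21 CPM in sum D cells, and at 19.3 CPM in sum A cells. Lpl was also found in sum D cells at 158 CPM and in sum A cells at 105 CPM. Rorb was at 123 CPM (110 to 137) in sum C cells and at 21.6 to 28.4 CPM in sum A and sum D cells. Nwd2 likewise was at 85.0 CPM (74.3 to 96.8) in sum C cells, against 5.89 CPM in sum D cells.

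**Figure D1:**
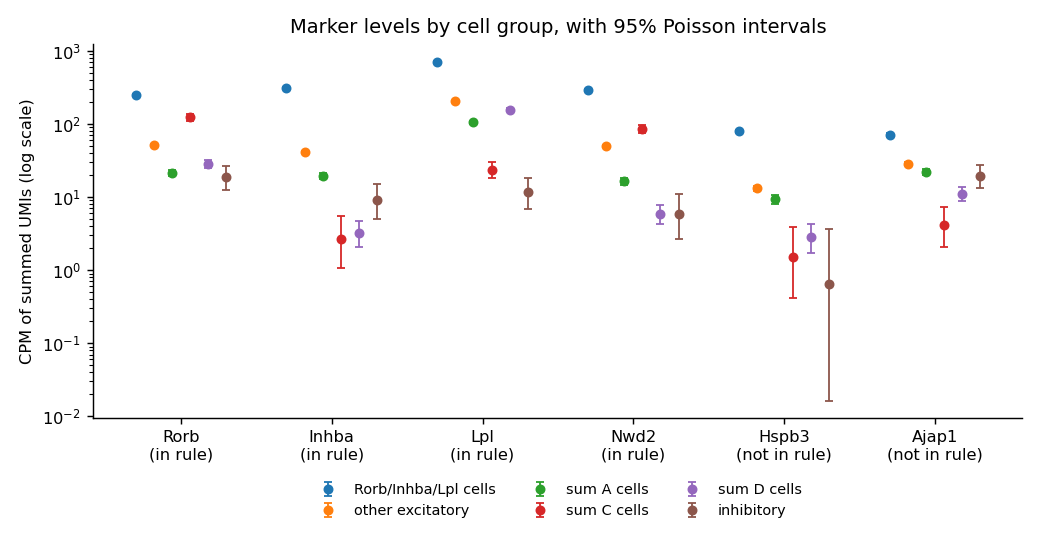
Levels of the 4 rule genes and of Hspb3 and Ajap1 in 6 groups of cells, in CPM on a log axis; points are levels of summed UMIs and bars are 95% Poisson intervals for counting error. The Rorb/Inhba/Lpl cells stand highest for each gene, by choice for the rule genes and outside the rule for Hspb3 (79.5 CPM) and Ajap1 (70.1 CPM), while Rorb and Nwd2 are also found in sum C cells.

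To see each rule gene in cells that it had not helped to choose, the rule was repeated with that gene left out. Rorb was then 3.61 times (3.44 to 3.79) as high in 1128 chosen cells as in the other excitatory cells, at 228 against 63.2 CPM. Inhba was 5.22 times (4.98 to 5.47) as high in 1064 cells, at 299.9 against 57.5 CPM. Lpl was 2.28 times (2.22 to 2.35) as high in 605 cells, at 650.1 against 285 CPM. Nwd2 was 3.63 times (3.47 to 3.80) as high in 1002 cells, at 264 against 72.7 CPM. Each of these sets lay within the 1236 cells. Each gene was thus higher in cells chosen by the other genes of the sum. The condition against sums A, C and D was kept, so these contrasts are still partly set by the choice. Cells that no longer passed joined the other excitatory cells, so the 4 ratios have different references. Lpl had the lowest ratio, but without it only 605 of the 1236 cells still passed. Its level in the reference was then 285 CPM, against 205 CPM under the full rule, so its rank among the 4 is no finding.

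Outside the rule, and among genes detected in at least 10% of chosen cells, Hspb3 ranked first when 10 CPM was added on both sides. It encodes a small heat shock protein of the family that also holds Cryab. It ranged from 0 to 16 UMIs per chosen cell with a median of 0, and was detected in 569 cells (46.0%) against 8.46% of the other excitatory cells. Its level was 79.5 CPM (75.2 to 83.8) against 13.2 CPM, a ratio of 6.02 (5.48 to 6.62). The cells chosen by none of the sums held 22.7 CPM, sum A cells 9.30 CPM, sum D cells 2.81 CPM and sum C cells 1.504 CPM. The lead of Hspb3 over Gucy1a3, next in the ranking, was narrow. By plain ratio, which was not the ranking measure, Hspb3 was below Kcnh1 (11.01). With the other excitatory cells limited to the UMI range of the chosen cells, the plain ratio of Hspb3 was 5.54, also below Cav1 (6.75).

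Ajap1 encodes a transmembrane protein of adherens junctions that also binds GABA-B receptors. It was detected in 538 chosen cells (43.5%) against 15.1% of the others. Its level was 70.1 CPM (66.1 to 74.2) against 28.6 CPM, a ratio of 2.45 (2.27 to 2.65). Sum A cells held 22.1 CPM of Ajap1, nearer to the chosen cells than for Hspb3. Excitatory cells with a sum B of at least 5 that were not chosen were nearer still, at 49.3 CPM of Ajap1.

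Detection was also compared after each cell had been thinned to 2000 UMIs, which 1235 chosen cells and 5339 other excitatory cells reached. Hspb3 was then found in 11.3% of chosen cells (9.62 to 13.2) against 1.72% (1.39 to 2.11) of the others. Ajap1 was found in 11.1% (9.40 to 13.0) against 4.03% (3.52 to 4.59). Rorb was found in 28.2% against 6.11%, Inhba in 39.4% against 5.19%, Nwd2 in 40.3% against 5.73% and Lpl in 70.6% against 23.0%. As another cell type, which free RNA in droplets also reaches, 203 inhibitory cells were taken, with a median of 6538 UMIs before thinning. They had at least 5 UMIs of Gad1 and Gad2 and at most 1 of Neurod2 and Neurod6, and 201 of them reached 2000 UMIs. The limit on Neurod2 and Neurod6 kept out cells with more RNA of excitatory neurons. Low shares of excitatory neuron genes thus follow partly from the choice and set no firm background. Dividing cells were not kept out, and the set held 272 CPM of Top2a and 138 CPM of Mki67. Thinned shares in inhibitory cells were 0.498% for Hspb3, 3.98% for Ajap1, 3.48% for Rorb, 1.49% for Inhba, 0.995% for Nwd2 and 1.99% for Lpl. For Ajap1 these cells set no background, since they held 19.4 CPM (13.1 to 27.8) against 4.14 CPM (2.07 to 7.40) in sum C cells. Nor did they for Inhba, at 9.08 CPM (4.96 to 15.2) against 3.21 CPM (2.06 to 4.78) in sum D cells. The shares of the 4 rule genes in the chosen cells follow from the choice.

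Hspb3 was higher where sum B was higher. Among chosen cells with a sum B of 5 to 11 UMIs it was at 40.8 CPM, with 12 to 19 UMIs at 46.2 CPM, with 20 to 28 UMIs at 74.7 CPM and with at least 29 UMIs at 134 CPM. Excitatory cells with a sum B of 0 held 4.23 CPM. The median depth was 10786 UMIs in the lowest of the 4 groups and 16921 in the highest, and the part of depth in these levels was not tested. Ajap1 went from 46.7 to 61.8, 89.2 and 76.3 CPM over the same 4 groups of chosen cells, and thus was no higher in the last group than in the group before it. Foxp1, a forkhead transcription factor, was already at 1006 CPM in the lowest group and at 1327 CPM in the highest, against 119 CPM in cells with a sum B of 0. Gucy1a3 went the other way within the chosen cells, from 1017 to 746 CPM.

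The cells nearest to the borders of the rule are given with no test. The 34 cells just inside, with a sum B of 5, held 46.1 CPM of Hspb3, 34.6 CPM of Ajap1 and 885 CPM of Foxp1. The 43 cells just outside, with a sum B of 4 that was still at least 2 times the other sums, held 33.8 CPM of Hspb3, 67.6 CPM of Ajap1 and 859 CPM of Foxp1. Most cells with a sum B of at least 5 that were not chosen failed against sum A, namely 991 of 1169. Between 2 and 3 times sum A, 264 chosen cells held 55.3 CPM of Hspb3 and 262 CPM of Cux1. Between 1.5 and 2 times sum A, 140 cells outside held 42.8 CPM of Hspb3 and 308 CPM of Cux1. Both sets held more Cux1 than the 181 CPM of all chosen cells. Ajap1 hardly differed at this border, at 76.5 CPM inside and 73.0 CPM outside. At the border with sum C, 90 chosen cells held 61.2 CPM of Hspb3 and 24 cells outside held 76.8 CPM. At the border with sum D, 12 chosen cells held 13.3 CPM of Hspb3 and 1128 CPM of Foxp1, and 11 cells outside held 72.7 and 533 CPM. These Hspb3 levels rest on only 3 UMIs inside and 12 UMIs outside.

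**Figure D2:**
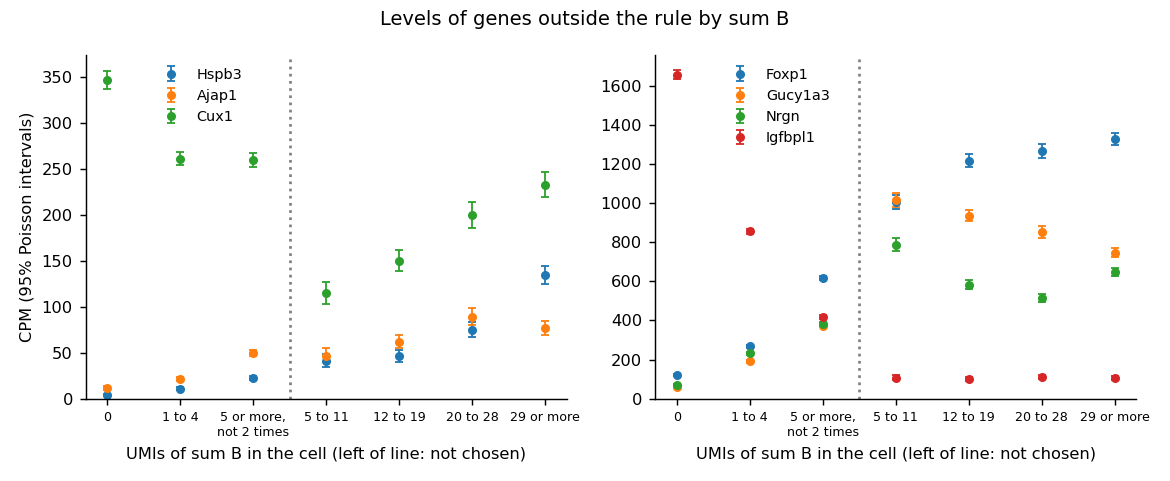
Levels in CPM of 7 genes outside the rule in excitatory cells grouped by their UMIs of sum B; the 3 groups left of the dotted line were not chosen, and bars are 95% Poisson intervals. From the first to the last group Hspb3 goes from 4.23 to 134 CPM and Igfbpl1 from 1657 to 105 CPM, and Cux1 is lowest in the chosen cells with a sum B of 5 to 11 (114 CPM) and at 232 CPM in the last group.

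Across all genes outside the rule, 8937 reached 10 CPM with the UMIs of the chosen and the other excitatory cells pooled. Of these, 115 (1.29%) were at least 2-fold higher in Rorb/Inhba/Lpl cells and 182 (2.04%) at least 2-fold lower, and the median ratio was 0.963. The rule kept out cells led by sums A, C and D, and the comparison cells hold them, so genes that go with those sums are low in the chosen cells partly by choice. For 81 of the higher and 135 of the lower genes the whole interval lay beyond 2-fold. Genes named below are the 15 with the largest and the 15 with the smallest ratios after 10 CPM had been added on both sides.

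Besides Hspb3, the highest genes included an alpha and a beta subunit of soluble guanylate cyclase, the receptor for nitric oxide. Gucy1a3 was at 871 against 219 CPM (ratio 3.98, 3.88 to 4.08) and was detected in 98.9% of chosen cells against 42.7% of the others. Gucy1b3 was at 315 against 112 CPM (2.82, 2.72 to 2.93). Cav1, which encodes the membrane scaffold caveolin-1, was at 69.6 against 11.9 CPM (5.84, 5.29 to 6.45). Foxp1 was at 1225 against 351 CPM (3.49, 3.42 to 3.57) and was detected in 98.4% of chosen cells. After thinning, Foxp1 had a UMI in 82.4% of chosen cells, 30.1% of the others and 16.9% of the inhibitory cells, and Gucy1a3 in 76.3%, 21.0% and 13.4%. The inhibitory cells set no background for either gene, since they held 287 CPM of Foxp1 and 94.0 CPM of Gucy1a3 against 179 and 37.5 CPM in sum D cells. Of the other excitatory sets, the cells chosen by none of the sums were nearest to the chosen cells, with 599 CPM of Foxp1 and 394 CPM of Gucy1a3.

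Syt4, a synaptotagmin of secretory vesicles, was at 1459 against 467 CPM (3.12, 3.07 to 3.18). Scg2, the precursor of secretogranin II in dense-core vesicles, was at 136 against 36.2 CPM (3.76, 3.53 to 3.999). Kcnh1, a voltage-gated potassium channel, was at 24.7 against 2.25 CPM, which gave the largest plain ratio of the 15 (11.01, 8.92 to 13.7). With the UMIs of both groups pooled it was below 10 CPM, so it was not among the 115. Trpc5, a cation channel, was at 78.9 against 23.3 CPM (3.39, 3.13 to 3.67).

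The rest of the 15 were Mast4, Lrrn3, Tenm1, Lhfp, Snx7 and Cpne4, with ratios of 2.91 to 3.95. Mast4 encodes a serine/threonine kinase and was at 113 against 29.8 CPM. Tenm1 encodes teneurin-1, a transmembrane protein of synaptic adhesion, and was at 189 against 64.8 CPM. Lrrn3, a neuronal protein with leucine-rich repeats, was at 181 against 60.0 CPM. When the other excitatory cells were limited to those with 5525 to 24779 UMIs, the 5th to 95th percentile of the chosen cells, the 15 ratios were 2.91 to 12.2. The limited set held a median of 9320 UMIs, still below the 13233 of the chosen cells, so this limit did not match depth.

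**Figure D3:**
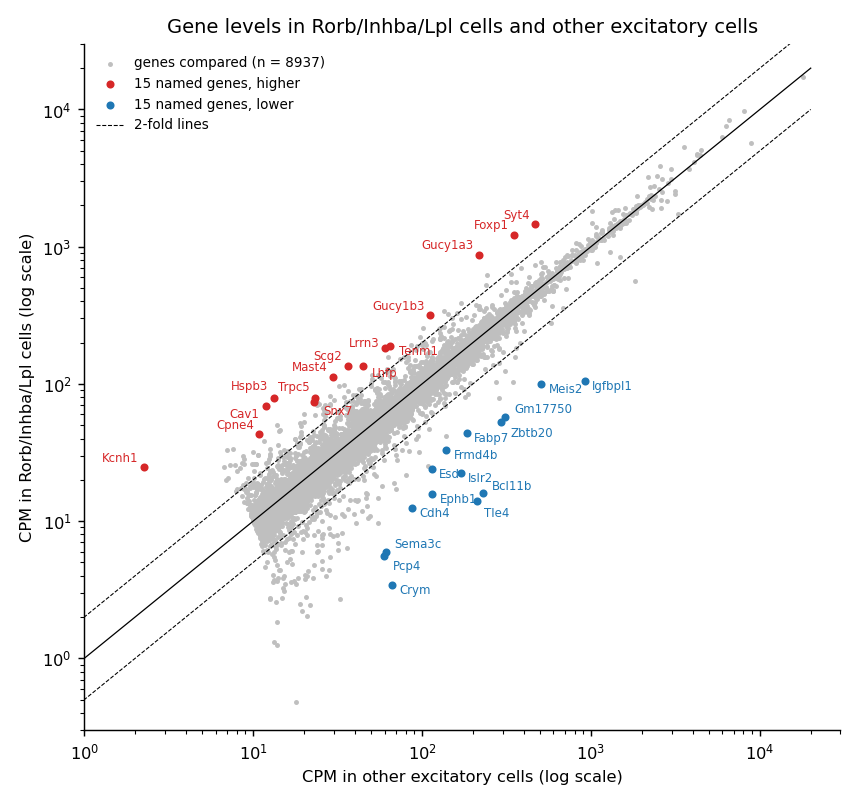
Levels of the 8937 genes compared, in CPM on log axes, in other excitatory cells (x axis) and in Rorb/Inhba/Lpl cells (y axis); the dashed lines mark 2-fold. The 15 highest named genes (red), among them Foxp1 (1225 against 351 CPM), and the 15 lowest (blue), among them Tle4 (14.03 against 211 CPM), lie beyond the lines; Kcnh1 is shown although it was below 10 CPM with both groups pooled.

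Among the lowest genes, Tle4, a corepressor found in corticothalamic neurons of layer VI, was at 14.03 against 211 CPM (ratio 0.0663, 0.0580 to 0.0755). Bcl11b, which directs the subcerebral projection neurons of layer V, was at 16.0 against 229 CPM (0.0699, 0.0617 to 0.0789). Crym, a thyroid hormone-binding protein, was at 3.40 against 66.3 CPM (0.0513, 0.0388 to 0.0666), and Pcp4, a calmodulin-binding protein, at 5.61 against 59.4 CPM (0.0945, 0.0761 to 0.116). Each was highest in sum C or sum D cells, where Bcl11b reached 959 and Tle4 830.4 CPM.

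Igfbpl1, Zbtb20, Meis2, Cdh4 and Sema3c were also low and were highest in sum A cells among the cells chosen by sums A, B, C and D. Igfbpl1 was at 105 CPM in the chosen cells, 922 CPM in the other excitatory cells and 1641 CPM in sum A cells. Zbtb20, a transcriptional repressor, was at 52.6 against 295 CPM, Meis2, a homeobox factor, at 99.9 against 509 CPM, and Cdh4, a classical cadherin, at 12.5 against 87.1 CPM. Sema3c, a secreted guidance cue, was at 5.97 against 60.8 CPM. The rest of the 15 lowest genes, whose highest level fell in different sets, were Islr2, Ephb1, Gm17750, Esd, Fabp7 and Frmd4b, with ratios of 0.132 to 0.238.

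The chosen cells were also compared with the sum A cells, because most candidates failed against that sum. The cells chosen by none of the sums were nearer than sum A cells in Hspb3, Foxp1 and Gucy1a3, but no ratios were taken against them. Of 8831 genes compared, 386 (4.37%) were at least 2-fold higher in Rorb/Inhba/Lpl cells and 250 (2.83%) at least 2-fold lower, with a median ratio of 0.959. Sum A cells were chosen with sum A at least 2 times sum B, and the Rorb/Inhba/Lpl cells the other way round. Genes that go with either sum therefore differ partly by choice on both sides. Nrgn, the postsynaptic calmodulin-binding protein neurogranin, was at 623 against 53.7 CPM (11.6, 10.9 to 12.3) and was detected in 86.2% against 15.1% of cells. Ncald, a neuronal calcium sensor, was at 254 against 35.0 CPM (7.27, 6.72 to 7.88), Vsnl1, of the same family, at 116 against 12.5 CPM (9.25, 8.12 to 10.6), and Cntn5, a contactin, at 97.1 against 9.34 CPM (10.4, 8.95 to 12.1).

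Foxp1 was 7.68 times (7.40 to 7.97) as high as in sum A cells, Gucy1a3 7.39 times (7.08 to 7.72) and Cav1 19.5 times (15.4 to 25.1). Npy, a neuropeptide gene, was at 633 against 81.6 CPM (7.76, 7.37 to 8.17), but it was at 616 CPM in sum D cells as well. Nrgn was at 1072 CPM in sum C cells and Vsnl1 at 146 CPM in sum D cells, above the chosen cells, and Cntn5 was at 82.0 CPM in sum C cells. Mast4 and Scg2 completed the 10, at ratios of 8.84 and 7.58. Lower than in sum A cells were Igfbpl1 (0.0643), Sema3c (0.0520), Zbtb20 (0.0948), Meis2, Cdh4, Gm17750, Frmd4b, Mir99ahg, Unc5d and Svet1. Svet1 lies within Unc5d on the same strand in the GENCODE annotation, so reads of this pair may have been split. Sum A cells held a median of 7167 UMIs, and the part of depth in these contrasts was not tested.

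Layer genes were then read as lists. Of 14 layer IV genes outside the rule, 7 reached 10 CPM, with 3 at least 2-fold higher, 1 at least 2-fold lower and a median ratio of 0.793. Over all genes compared, 1.29% were higher and 2.04% lower. The higher genes were Hspb3, Ajap1 and Plxnd1, a semaphorin receptor (26.1 against 10.4 CPM, ratio 2.51, 2.21 to 2.86). In the chosen cells without a Rorb UMI Plxnd1 was at 6.90 CPM, below the other excitatory cells. Hspb3 and Ajap1 were given as markers with the label, so the count of 3 is no independent support for it. The lower gene was Unc5d, a netrin receptor of young upper-layer neurons (21.6 against 79.9 CPM; 0.270, 0.241 to 0.3003). Cux1 and Cux2, homeobox genes of layers II to IV, had ratios of 0.638 (0.613 to 0.664) and 0.558 (0.522 to 0.596). Cux1 was at 181 CPM in chosen cells, 445 CPM in sum A cells, 34.2 CPM in sum C cells and 49.6 CPM in sum D cells. Of these sets, the chosen cells lay between the sum A cells and the sum C and sum D cells.

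Of the layer II/III genes, 10 reached 10 CPM, with 1 higher and 1 lower, against 1.29% and 2.04% of all genes, and a median ratio of 1.42. A count of 1 in 10 genes is no result about the list. Rasgrf2 was the higher gene (70.6 against 23.8 CPM; 2.97, 2.74 to 3.22) and Pou3f3 the lower (278 against 579 CPM; 0.480, 0.465 to 0.495). Lhx2 and Mef2c had ratios of 1.60 and 1.51.

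Of 10 layer V genes compared, 0 were higher and 4 lower, against 1.29% and 2.04% of all genes, with a median of 0.624. Etv1 (9.61 against 40.4 CPM) was low together with Bcl11b, Crym and Pcp4, while Ldb2, a cofactor of LIM domain proteins, had a ratio of 1.34 (1.28 to 1.41) and Fezf2 one of 0.529 (0.487 to 0.574). Of 8 layer VI genes compared, 1 was higher and 4 lower, against 1.29% and 2.04% of all genes, with a median of 0.556. The lower genes were Tle4, Zfpm2, Grik3 and Sox5, and the higher gene was Foxp1, which is not restricted to that layer. Among excitatory cells chosen by a sum, the 4 lower layer V genes were highest in sum C cells and the 4 lower layer VI genes in sum D cells. The rule kept those cells out and the comparison holds them, so these low levels follow partly from the choice. Rprm was at 313 against 242 CPM (1.30, 1.25 to 1.34). Of the 2 layer VIb genes compared, 1 was lower, against 2.04% of all genes, namely Nr4a2 (37.3 against 80.7 CPM; 0.463, 0.425 to 0.503), while Nr4a3 was at 63.6 against 42.7 CPM (1.49, 1.38 to 1.60), and Ctgf, Cplx3 and Nxph4 had 1, 5 and 10 UMIs in the chosen cells. Chosen cells with a Rorb UMI held 90.8 CPM of Ldb2 and 25.5 CPM of Nr4a3. Both were below the other excitatory cells, at 114 and 42.7 CPM.

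Within the ROR family, Rora accompanied Rorb. Rora, a close relative that is likewise active in thalamus-recipient cortex, was at 32.8 against 7.01 CPM (4.67, 4.08 to 5.36) and was detected in 23.8% against 4.92% of cells. After thinning it was found in 6.56% of chosen cells and 1.31% of the others, and in 5.97% of the inhibitory cells. It was at 5.30 CPM in sum A cells and 1.47 CPM in sum D cells. The inhibitory cells held 25.3 CPM, above the 5.27 CPM of sum C cells, and so set no background for Rora. The clock repressors Nr1d1 and Nr1d2, which bind the same DNA elements, had ratios of 2.54 and 0.913, with Nr1d1 below the 10 CPM needed for a call.

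Of the 14 genes of the activin list besides Inhba, 9 reached 10 CPM, with 0 higher, 1 lower and a median ratio of 0.842. Over all genes compared the shares were 1.29% and 2.04%, so a count of 0 or 1 in 9 genes is no result about the list. The other ligand genes Inhbb and Inha had ratios of 0.849 and 1.07. The type II receptors Acvr2a and Acvr2b had ratios of 0.689 and 0.792, and the type I receptor Acvr1b 1.09. Another type I receptor, Acvr1c, was at 17.0 against 7.05 CPM (2.40, 2.05 to 2.82) but missed the 10 CPM with both groups pooled. Fst, which encodes the activin-binding inhibitor follistatin, was the lower gene at 28.1 against 59.5 CPM (0.472, 0.428 to 0.521). Smad2 and Smad4, which carry the signal to the nucleus, had ratios of 1.02 and 0.842.

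Of 8 lipoprotein genes besides Lpl that were compared, 0 were higher and 3 lower, against 1.29% and 2.04% of all genes, with a median ratio of 0.963. The receptors Vldlr and Lrp1 had ratios of 1.23 and 0.943, whereas Lrp8, a receptor for reelin and apolipoprotein E, was at 80.3 against 180.5 CPM (0.445, 0.420 to 0.471). Apoe and Fabp7, genes of glial cells, were at 19.9 against 45.1 CPM and 43.7 against 183 CPM. Sel1l, which helps Lpl protein to mature, had a ratio of 0.983. Gpihbp1, its anchor on capillary endothelium, had 1 UMI in the chosen cells, while Apoc2, its activator, and Cd36, a fatty acid transporter, had none, which allows up to 0.243% of cells with a UMI and sets no limit on cells that express the gene.

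Partners of Ajap1 and relatives of Hspb3 were read in the same way. Of 6 genes of GABA-B receptors and their partners, 1 was higher (Ajap1) and 0 lower, against 1.29% and 2.04% of all genes, with ratios of 0.979 for Gabbr1, 0.900 for Gabbr2 and 0.505 for Kctd12. Against other excitatory cells in the UMI range, Kctd12 was at 0.485 and thus past 2-fold. Of 3 small heat shock genes, 1 was higher (Hspb3), against 1.29% of all genes, and Cryab and Hspb11 had ratios of 1.24 and 1.17. Hspb2 had 14 UMIs and Hspb1, Hspb7 and Hspb8 1 each.

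Of 11 genes of barrel formation and thalamic input compared, 2 were higher and 1 lower, against 1.29% and 2.04% of all genes compared, with a median ratio of 1.10. Besides Rora, the higher gene was Grin2a, which encodes an NMDA receptor subunit of maturing synapses (60.3 against 19.9 CPM; 3.02, 2.77 to 3.30). Grm5, a metabotropic glutamate receptor, had a ratio of 1.65, Grin2b 1.10 and Adcy1, an adenylyl cyclase, 0.661. Neurod1 was the lower gene (8.89 against 20.9 CPM). Of 12 guidance and adhesion genes, 0 were higher and Unc5d and Cdh4 lower, against 1.29% and 2.04% of all genes, while Cdh10, Efna5, Sema7a and Epha4 had ratios of 1.94, 1.86, 1.81 and 1.70. Within the UMI range Efna5 was at 2.10, past 2-fold. Of 7 area genes, 0 passed in either direction, against 1.29% and 2.04% of all genes, with Lmo4 at 1.83 and Nr2f1 at 0.984. Of 6 AMPA and kainate receptor genes, 0 passed, against 1.29% and 2.04% of all genes, with Gria2 at 0.559.

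Of 10 young-neuron genes, 0 were higher and 4 lower (Igfbpl1, Sema3c, Sstr2 and Neurod1), against 1.29% and 2.04% of all genes, with a median ratio of 0.574. Among excitatory cells chosen by a sum, these 4 genes were highest in sum A cells. The rule kept those cells out and the comparison holds them, so these low levels follow partly from the choice. Sox11 and Sox4 had ratios of 0.532 and 0.763, Cd24a 0.887 and Dcx 0.942. Of 12 maturing-neuron genes, 2 were higher and 0 lower, against 1.29% and 2.04% of all genes, with a median of 1.15. Syt1, the calcium sensor of vesicle release, was at 341 against 135 CPM (2.52, 2.44 to 2.61), and Nefl, a neurofilament subunit, at 128 against 62.1 CPM (2.07, 1.96 to 2.18). Rbfox3 and Nefm each had a ratio of 1.99 (Nefm 2.18 within the UMI range), whereas Map2, Syp, Snap25 and Vamp2 had ratios of 0.957 to 1.07 and Slc17a6 was at 0.685.

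Of 6 activity genes compared, 2 were higher (Scg2 and Fosl2) and 0 lower, against 1.29% and 2.04% of all genes, with a median ratio of 1.93, the highest of the 11 lists plotted. Fosl2, a subunit of the AP-1 factor, was at 23.2 against 7.98 CPM (2.91, 2.53 to 3.35). In chosen cells with a Rorb UMI Fosl2 was at 6.11 CPM, below the other excitatory cells. Egr1 and Fos, early genes of the same response, had ratios of 1.98 and 1.74, and Junb 0.726. Npas4 and Nr4a1, further early genes that missed the 10 CPM, had ratios of 0.676 (0.497 to 0.906) and 0.835 (0.655 to 1.05). Within the UMI range the ratio of Egr1 was 2.11, past 2-fold. Arc had 2 UMIs and Atf3 2 UMIs in all chosen cells. Tissue was digested before capture, and the part of digestion in these levels was not tested.

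**Figure D4:**
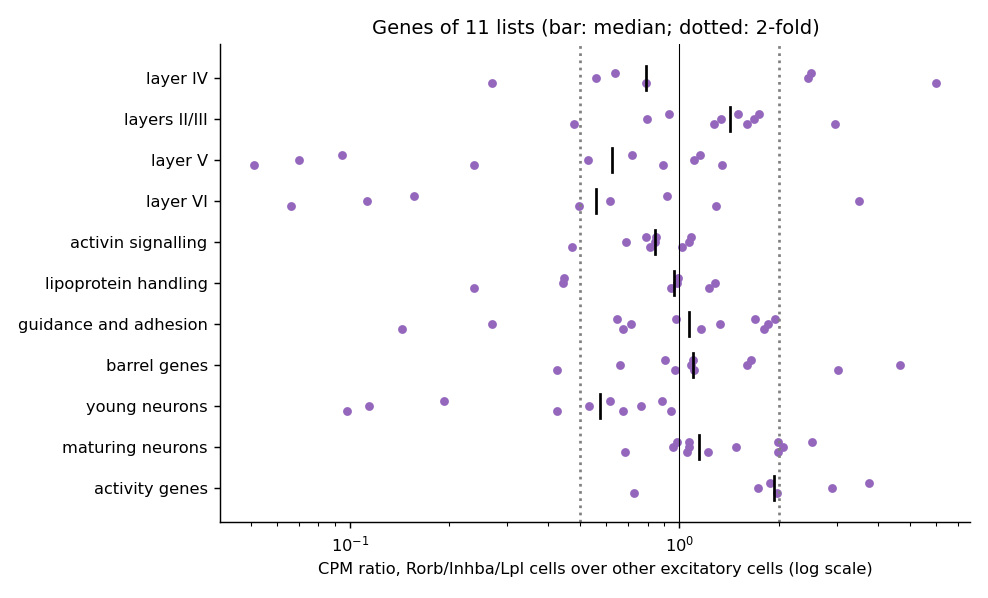
Ratios of CPM in Rorb/Inhba/Lpl cells over other excitatory cells for the genes of 11 lists that reached 10 CPM, on a log axis; each point is a gene, the bar is the median of the list and dotted lines mark 2-fold. Hspb3 (6.02), a marker given with the label, stands apart in the layer IV list. The layer V and young-neuron lists lie mostly below 1, partly by choice, and the activity list has the highest median (1.93).

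Markers of other cell types were read as lists. Of 8 inhibitory neuron markers, all 8 had a UMI and 0 reached 10 CPM, at 13.8 CPM summed against 20.1 CPM in the other excitatory cells. The 8 markers of astrocytes and radial glia summed to 68.5 against 160.5 CPM, with 4 of 6 compared at least 2-fold lower, against 2.04% of all genes. Of these markers, Slc1a3 (17.0% against 12.2%), Vim and Aldoc were detected in more of the chosen cells. Hes5, Sox9, Aldh1l1, Sox2 and Mt3 were detected in fewer. These shares were not thinned to equal depth. The 5 markers of oligodendrocyte precursors summed to 3.16 against 18.5 CPM, the 6 of microglia to 0.836 against 2.03 CPM, with C1qc at 0, and the 6 of vascular cells to 3.04 against 33.0 CPM. Of 4 Cajal-Retzius markers, Lhx1 was at 0 and the sum was 11.8 against 32.5 CPM. The 5 thalamic markers, which include the rule gene Foxp2, summed to 54.1 against 138 CPM, and Gbx2 was at 0, Tcf7l2 had 5 UMIs and Lhx9 had 9. Slc17a6, a vesicular glutamate transporter gene, was at 39.4 against 57.5 CPM (0.685, 0.628 to 0.745) and had a UMI in 32.8% of chosen cells. Among hippocampal markers Spink8 was at 0, Prox1 had 9 UMIs and Zbtb20 was low, whereas Nrgn was higher (2.59, 2.52 to 2.65).

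For red blood cell and vascular markers the ratio depended on which other excitatory cells were compared. The 5 red blood cell markers summed to 50.4 against 141 CPM, but Hbb-bs was detected in 4.53% of chosen cells and 3.13% of the others. Its ratio was 0.432 against all other excitatory cells and 11.9 against those in the same UMI range, so its direction depended on the other excitatory cells outside that range. Alas2, a red cell enzyme, had 2 UMIs. Cldn5, of endothelial tight junctions, was detected in 0.647% and 0.759% of cells, and its ratio was 0.0267 against all other excitatory cells and 0.143 within the UMI range. Flt1 went from 0.144 to 0.441 and Pecam1 from 0.399 to 1.02 in the same way.

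The chosen cells were then split by the presence of a Rorb UMI. The 677 cells with a Rorb UMI held a median of 13666 UMIs and the 559 without held 12657. Since Rorb was part of the rule and cells without it had to pass through other genes, the split is given as a description. The genes named for it were ranked after the split had been seen.

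Of the layer IV genes outside the rule, Plxnd1, Hspb3, Cux1, Cux2 and Ajap1 are given for the split, and each was higher in cells with a Rorb UMI. Plxnd1 was named by its rank, and the rest of that list is not given for the split. Plxnd1 was at 40.3 against 6.90 CPM (5.83, 4.33 to 8.02), Hspb3 at 103 against 46.8 CPM (2.21, 1.95 to 2.51), Cux1 at 237 against 105 CPM (2.25, 2.07 to 2.44) and Cux2 at 81.1 against 38.2 CPM (2.12, 1.85 to 2.45). Rora was at 43.6 against 18.0 CPM (2.42, 1.98 to 2.97) and Ajap1 at 82.6 against 53.0 CPM (1.56, 1.38 to 1.77). Inhba, a gene of the rule, was at 384 against 216 CPM (1.77, 1.67 to 1.88). The largest contrasts in this direction also included Fat3, an atypical cadherin (135 against 36.9 CPM), Rbm24, an RNA-binding protein (82.8 against 25.6 CPM), and Bhlhe22, a basic helix-loop-helix factor (334 against 135 CPM). Fabp7, a gene of radial glia, was likewise at 64.8 against 14.9 CPM and was detected in 21.4% against 13.4% of cells, and its part in these contrasts was not tested.

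Cells without a Rorb UMI were higher in a different set. Scg2 was at 239 CPM against 60.4 CPM in cells with Rorb (0.252, 0.229 to 0.277, with over without), Fosl2 at 46.5 against 6.11 CPM (0.131, 0.0979 to 0.174) and Nr4a3, an orphan nuclear receptor, at 116 against 25.5 CPM (0.220, 0.190 to 0.255). Npy was at 875 against 456 CPM (0.520, 0.501 to 0.541). Further genes ranked on this side were Sv2b, a synaptic vesicle protein, at 66.8 against 11.1 CPM, Unc13c, a vesicle priming factor, at 40.4 against 6.73 CPM, and Syn2, a synapsin, at 57.1 against 14.3 CPM. Ldb2 was at 239 against 90.8 CPM. In cells with Rorb, Fosl2, Nr4a3 and Ldb2 were below the other excitatory cells, which held 7.98, 42.7 and 114 CPM. The ratios of these genes above 1 for all chosen cells thus came from the cells without Rorb. Scg2 and Npy in cells with Rorb stayed above the other excitatory cells, which held 36.2 and 336 CPM. Of the 2281 Scg2 UMIs of the chosen cells 1698 lay in cells without Rorb, and of the 389 Fosl2 UMIs 330.

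Some genes hardly differed across the split. Foxp1 was at 1257 and 1182 CPM (1.06, 1.03 to 1.09) and was detected in 99.3% and 97.3% of cells. Nwd2 was at 289 and 298 CPM (0.971, 0.917 to 1.03). Lpl was at 756 and 659 CPM (1.15, 1.11 to 1.19). Against all other excitatory cells, the cells with Rorb had a Hspb3 ratio of 7.84 and the cells without one of 3.54, and the Ajap1 ratios were 2.89 and 1.86. Neither side of the split was therefore at the level of the other excitatory cells for Hspb3 and Ajap1. For Plxnd1, Cux1 and Cux2 the cells without Rorb were instead below the other excitatory cells. They held 6.90 against 10.4 CPM, 105 against 284 CPM and 38.2 against 113 CPM. Cells with Rorb held 40.3, 237 and 81.1 CPM, above the other excitatory cells for Plxnd1 alone.

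**Figure D5:**
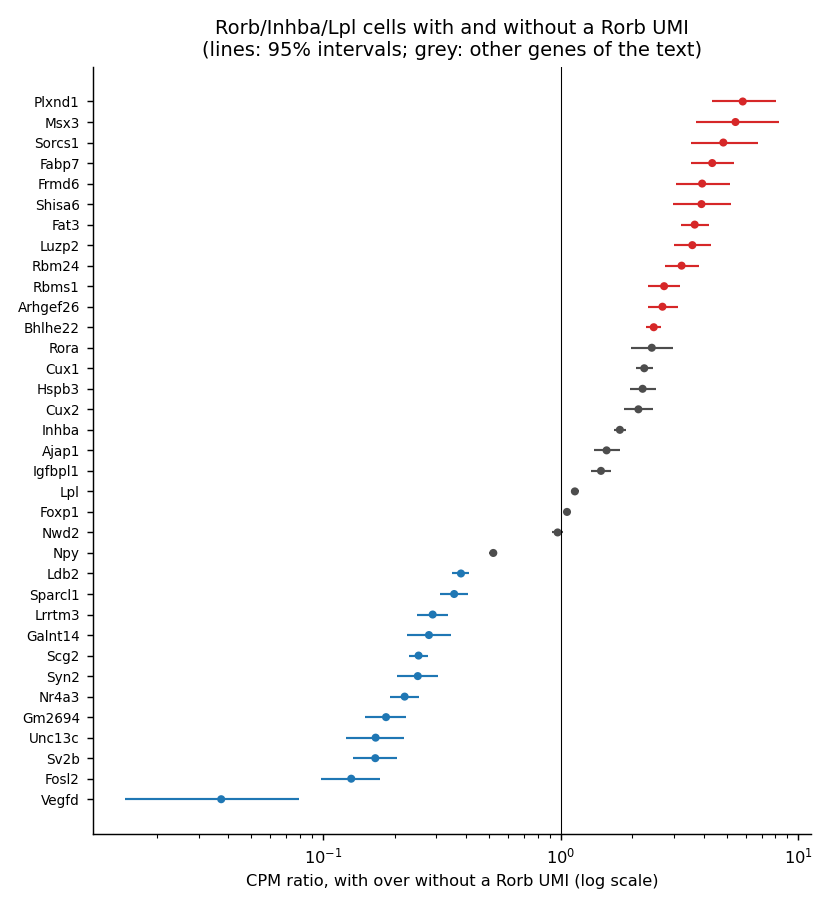
Ratios of CPM in Rorb/Inhba/Lpl cells with a Rorb UMI (677 cells) over those without (559 cells), on a log axis, with 95% intervals for counting error; red and blue genes had the largest contrasts and grey genes are others named in the text. Plxnd1, Hspb3, Cux1, Cux2 and Rora lie on the Rorb side, Scg2, Fosl2, Nr4a3 and Npy on the other, and Foxp1 and Nwd2 lie near 1.

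Depth also went with the makeup of the chosen cells. Over 4 groups of rising UMIs (309 cells in the deepest; medians from 9094 to 19887), Cux1 went from 281 to 237, 149 and 133 CPM, and Foxp1 from 1037 to 1063, 1310.5 and 1329 CPM. Hspb3 was at 68.4, 71.7, 86.1 and 83.5 CPM and Ajap1 at 83.8, 77.2, 65.9 and 63.7 CPM. In each of these groups both markers were above the 13.2 and 28.6 CPM of all other excitatory cells. Whether depth itself or the kind of cell set the course of Cux1 was not tested.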

How the data were processed

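Cortex cells of 1 WT library (10x Chromium 3′ chemistry) were analysed. The authors deposited raw UMI counts per gene and cell, with no normalization, and a table of UMI and gene counts per cell, which matched the UMI counts in each of the 11062 cells. The submitters' processing notes name STAR, Cell Ranger, Seurat and the build mm9; annotation and cell calling are not given in the sources used here. The library held 90346034 UMIs, with a median of 7197 and a lowest value of 500 per cell.

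Counts were summed over cells, scaled to CPM without mitochondrial genes, and compared as ratios with exact conditional binomial 95% intervals; levels have exact Poisson intervals and shares Clopper-Pearson intervals. A gene was called when it had at least 10 CPM with the UMIs of both groups pooled and a 2-fold ratio. Named genes are those of the lists, plus the 15 highest and 15 lowest ratios against other excitatory cells and the 10 against sum A cells, with 10 CPM added, detected in at least 10% of the higher group. With 1 library no test was made. Members and gene lists were chosen with earlier results of these data known. A doublet score from simulated pairs was read at 0.25, set after its distribution was seen because the automatic threshold marked 1 cell; 362 cells (3.27%) were marked and kept. Values of 3 list genes are not reported here. The ratio script was tested on simulated data. Alternatives changed the rule, comparison, filter, scaling and fold. Tools were Python 3.11.15, numpy 2.4.6, scipy 1.17.1, pandas 2.3.3 and scikit-learn 1.9.0.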

Additional observations from a re-analysis of the deposited data

How the results depend on the processing

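No paired analysis was possible because all cells came from 1 library. Of the 9 results, none of the ratios changed direction under any alternative run, and the share and the gene counts have no direction to change. The share of 18.3% was 16.4% with sum B of at least 8, 13.2% with at least 3 times each other sum and 20.3% with at least 2000 detected genes. Requiring 3 times gave ratios of 5.19 for Hspb3, 2.15 for Ajap1, 2.94 for Rorb, 4.05 for Inhba and 3.23 for Nwd2. A sum B of at least 8 gave 3.81 for Rorb and 3.46 for Nwd2. Without marked doublets Inhba was at 5.55 and Lpl at 2.36. With the other excitatory cells limited to the UMI range of the chosen cells, Rorb was at 4.01, Lpl at 2.05 and Nwd2 at 3.93. Counting each cell equally gave 7.005 for Hspb3, 3.06 for Ajap1, 4.55 for Rorb, 6.29 for Inhba, 2.75 for Lpl and 4.87 for Nwd2. In an alternative added after the data were seen, only cells with a Rorb UMI gave 7.84 for Hspb3 and 2.89 for Ajap1, and only those without gave 3.54 and 1.86. The counts of 115 higher and 182 lower genes were 299 and 702 at a minimum of 1 CPM and 2835 and 6739 with no minimum, where more genes of few UMIs were compared, and 365 and 429 at a fold of 1.5. In the other 11 alternatives of each count, the change was under 1.5 times. Scaling by the median ratio gave 139 higher and 169 lower. The causes of the other shifts were not tested. Depth limits genes with few UMIs in the chosen cells, such as Rspo1 and Scnn1a, whose ratios had intervals of 0.244 to 2.35 and 0.333 to 13.4.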
